A study of Mus musculus with 2 samples.

Results

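Oligodendrocyte precursors of the unsorted mouse brain were described from 168 cell barcodes, which are 1.79% of the 9367 kept barcodes of the total brain sample (exact binomial 95% interval 1.53 to 2.08%) and stand among 19443 kept barcodes in the whole series. Kept barcodes had 500 or more genes and no more than 10% of their unique molecular identifiers (UMIs, each counting 1 captured transcript) from mitochondrial genes. The precursors, called OPC barcodes here, were chosen by UMIs of 13 genes: a barcode had to hold a UMI of at least 3 of 7 precursor genes (Pdgfra, Cspg4, C1ql1, Cacng4, Tnr, Neu4 and Gpr17) and of at most 3 of 6 genes of mature oligodendrocytes (Mog, Mag, Mobp, Ermn, Opalin and Aspa). The levels of these genes are therefore given as a description only, and all comparisons of OPC barcodes with other barcodes of the same sample describe cells that the rule chose.

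Unsorted cells were pooled from mice labelled 2 and 24 months old in the sample title, although the age label reads 240 months for the older mice. The pool held male and female mice and the genotypes WT and STING-KO, which lacks STING, the adaptor that relays the sensing of cytosolic DNA. Its 14674 barcodes carry 4 suffixes, which could be assigned to no age, genotype or sex. The other sample of the series, FACS-sorted brain of male WT and STING-KO mice aged 3 and 12 months, held 1 barcode that met the rule among 10076 kept barcodes (exact binomial 95% interval 0.000251 to 0.0553%), so no comparison with it was made; the sorting gate was among the details not given in the sources used here. With 1 pooled sample there are no replicates, no test was possible, and all intervals are 95% intervals that cover counting error alone. Ages and genotypes could not be compared for the same reason.

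Oligodendrocyte precursors are the cells of the adult brain that divide and give rise to the oligodendrocytes that wrap axons in myelin. They sense platelet-derived growth factor through the receptor PDGFRα, carry the proteoglycan NG2 (Cspg4) and receive synaptic input from neurons. They express the transcription factors OLIG1, OLIG2, SOX10, SOX5 and SOX6. On the way to differentiation they lose PDGFRα, pass through a state that expresses the receptor GPR17, and then switch on MYRF and the myelin genes.

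The label was checked with 3 genes that the rule did not use, Olig1, Olig2 and Sox10, which encode the transcription factors shared by precursors and oligodendrocytes. At least 1 of them had a UMI in 122 of the 168 OPC barcodes (72.6%, interval 65.2 to 79.2%). The same share was 71.8% of 365 oligodendrocyte barcodes (at least 4 of the 6 mature genes and at most 2 of the precursor genes), 19.4% of 356 astrocyte barcodes, 7.12% of 4606 neuron barcodes and 10.2% of the 9199 other kept cells. Neuron barcodes should lack these genes, so their share serves as the background. The share grew with the number of precursor genes found, from 53.1% of the 49 barcodes with 3 of them through 65.9% of 41, 81.3% of 32 and 87.0% of 23 to 100% of the 23 barcodes with all 7. Just outside the rule, 240 barcodes with 2 precursor genes and at most 3 mature genes had a lineage factor in 17.5%, and 28 barcodes with at least 3 precursor genes but 4 or more mature genes had one in 89.3%. Those 28 held a median of 15514 UMIs, against 2252 UMIs in the OPC barcodes.

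A large part of the OPC barcodes also carried markers of other cells. Of the 168, 70 held a UMI of at least 4 of 10 neuron markers, 18 of at least 4 of 7 astrocyte markers, 7 of at least 3 of 5 mural markers and 1 of at least 3 of 4 fibroblast markers, 73 barcodes in all (43.5%, interval 35.8 to 51.3%). These 73 are called mixed, a division made after the data were seen. They held 450337 of the 638930 UMIs, with a median of 3960 UMIs, and the 95 unmixed barcodes held 188593 UMIs with a median of 1306. At least 4 neuron markers were found in 41.7% of the OPC barcodes, 26.0% of the oligodendrocyte barcodes, 24.4% of the astrocyte barcodes and 52.05% of the other kept cells. By any of the marker sets, 57.8% of the other kept cells and 27.1% of the oligodendrocyte barcodes would count as mixed. Comparisons without mixed barcodes left them out of the OPC barcodes alone, and the classes compared with were not changed. A lineage factor was found in 69.9% of the mixed and 74.7% of the unmixed barcodes. The 10 neuron markers summed to 6751 UMIs per 1000000 (CPM) in the mixed and 1914 CPM in the unmixed OPC barcodes, against 11983 CPM in neuron barcodes and 5556 CPM in the other kept cells, and none of the 10 was at 0. The mixed barcodes were spread over the suffixes, with 14 of 29, 8 of 20, 24 of 57 and 27 of 62 in suffixes 1 to 4. Levels are therefore given for all OPC barcodes and, where the result turns on it, for the unmixed ones.

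**Figure D1:**
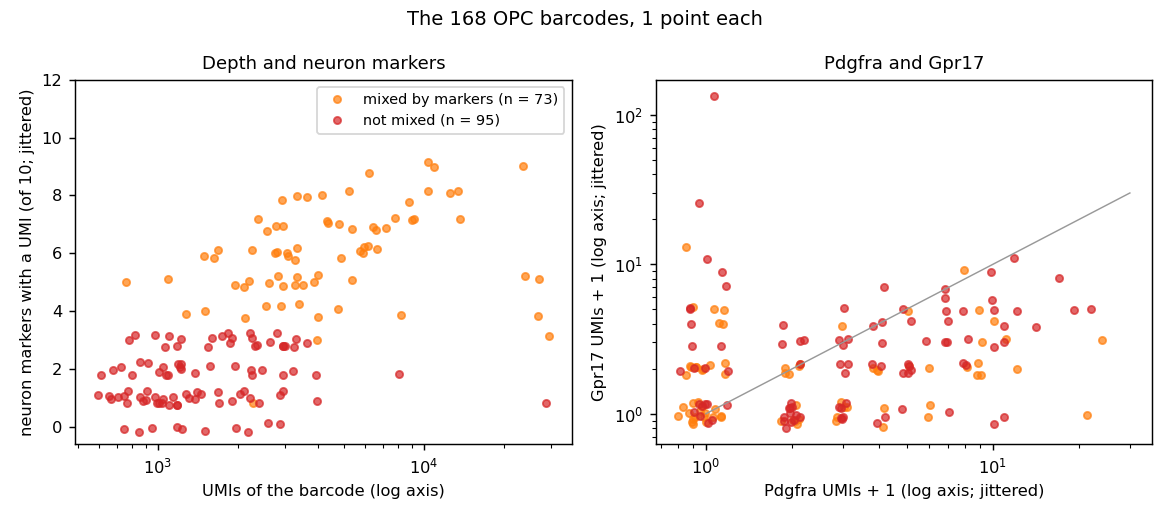
Each point is 1 of the 168 OPC barcodes, in orange when mixed and in red when unmixed. The left panel sets the number of neuron markers with a UMI against the UMIs of the barcode (log axis), and the right panel sets Gpr17 against Pdgfra UMIs, with 1 added and the line of equal values (points are jittered); most deep barcodes carry many neuron markers, and 1 unmixed barcode with 28754 UMIs and 132 Gpr17 UMIs stands apart.

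The 12 OPC barcodes with over 10000 UMIs held 231313 UMIs, so they weigh heavily in pooled levels, and 11 of them were mixed. Of these, 3 held 343, 251 and 167 UMIs of Rgs5, a pericyte gene, and 1 held 566 UMIs of Spp1. The mixed barcodes of 29615, 27092, 24027 and 10941 UMIs each held 3 precursor genes, the minimum of the rule, and no UMI of Olig1, Olig2 or Sox10. The other mixed barcodes over 10000 UMIs each held 1 or 2 of these factors. The 1 unmixed barcode among the 12, in suffix 3, had 28754 UMIs, no Pdgfra UMI, 132 Gpr17 UMIs and 59 Tnr UMIs, together with all 3 lineage factors. No barcode sequence of an OPC barcode was shared with another suffix or with the sorted sample, while 8 sequences were shared between suffixes among the kept total brain cells. Total brain held 48226525 UMIs, and kept cells outside the OPC barcodes had a median of 1685 UMIs.

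Over the suffixes, OPC barcodes made up 2.66% of kept cells in suffix 1 (29 of 1092, interval 1.79 to 3.79%), 1.36% in suffix 2 (20 of 1472, 0.832 to 2.09%), 1.56% in suffix 3 (57 of 3644, 1.19 to 2.02%) and 1.96% in suffix 4 (62 of 3159, 1.51 to 2.51%). The interval of each suffix overlapped those of the other suffixes. OPC barcodes with a UMI of Olig1, Olig2 or Sox10 made up 79.3%, 85.0%, 68.4% and 69.4% of the members in suffixes 1 to 4.

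Among the genes of the rule, Tnr, which encodes the matrix glycoprotein tenascin-R, was found in 152 OPC barcodes, Cspg4 in 126, Cacng4, an auxiliary subunit of AMPA receptors, in 121, Pdgfra in 111, Gpr17 in 101, C1ql1, a secreted C1q-like protein, in 83, and Neu4, a sialidase, in 76. Pdgfra had 791, 1844, 875 and 612 CPM in the OPC barcodes of suffixes 1 to 4, against 11.1, 10.5, 18.2 and 15.6 CPM in the other kept cells. Gpr17 had a UMI in 60.1% of OPC barcodes and in 0.868% of neuron barcodes, whose median depth was 1836 UMIs, and in 38.03% and 0.321% after thinning to 1000 UMIs. Gpr17 had 602, 932, 1061 and 310 CPM in the OPC barcodes and at most 3.78 CPM in the other cells of any suffix. In suffix 3 it had 516 CPM without the unmixed barcode of 28754 UMIs. In the unmixed barcodes Pdgfra and Gpr17 each reached 1798 CPM, and without that barcode Pdgfra had 2121 CPM and Gpr17 1295 CPM. Mature genes were sparse, as the rule required, with none of the 6 in 93 OPC barcodes, 1 in 49, 2 in 16 and 3 in 10.

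Outside the rule, Vcan and Matn4 led the ranking over the other kept cells. Vcan, which encodes the chondroitin sulfate proteoglycan versican (chr13:89655312-89742509, GRCm38), had 737, 1513, 1029 and 518 CPM in the OPC barcodes of suffixes 1 to 4, against 17.7, 22.9, 19.8 and 17.6 CPM in the other kept cells. The OPC barcodes lay above the other cells in every suffix. Pooled, Vcan had 803 CPM in OPC barcodes (735 to 876) and 19.3 CPM in the other cells, a 41.6-fold difference (37.0 to 46.8), and unmixed OPC barcodes had 1851 CPM. It had a UMI in 123 OPC barcodes, 73.2% of them, and in 5.12% of neuron barcodes; with every barcode thinned to 1000 UMIs, the shares were 59.2% and 2.57%. Matn4, a matrix adaptor protein of the matrilin family (chr2:164389393-164405160), had 584, 912, 577 and 412 CPM in the OPC barcodes, against 14.5, 26.8, 12.8 and 11.0 CPM in the other cells, a 36.8-fold difference in the pooled levels (31.9 to 42.4). Ptprz1, a receptor tyrosine phosphatase that carries chondroitin sulfate (chr6:22875502-23052916), had 1374 CPM in OPC barcodes and 118.5 CPM in the other cells and was found in 150 OPC barcodes. It separated OPC barcodes less from astrocyte barcodes, which had 795 CPM, a 1.73-fold difference (1.59 to 1.88). Pcdh15, a cadherin, had 440 CPM in OPC barcodes against 40.2 CPM in the other cells, a 10.95-fold difference (9.59 to 12.5).

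**Figure D2:**
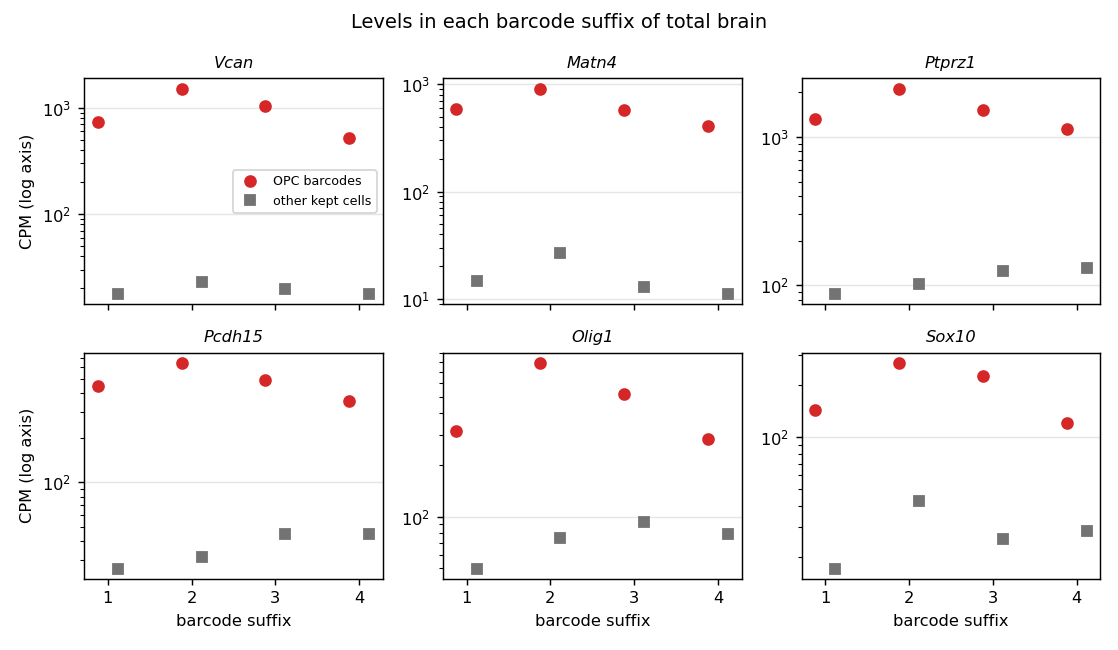
Levels in CPM (log axis) of 6 genes outside the rule in the OPC barcodes (red circles) and the other kept cells (grey squares) of each barcode suffix of total brain. The OPC barcodes lie above the other cells for every gene and suffix, from 737 against 17.7 CPM for Vcan to 314.5 against 49.7 CPM for Olig1 in suffix 1.

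A gene was counted as higher or lower when the levels differed at least 2-fold after 10 CPM was added to both, among genes with at least 10 UMIs over both classes and outside the rule. Over the other kept cells, 491 of 18109 genes (2.71%) were higher and 531 (2.93%) lower in OPC barcodes. Without the mixed barcodes these were 1283 (7.1%) higher and 1718 (9.51%) lower of 18071. With each barcode given equal weight, 650 (3.59%) were higher and 678 (3.74%) lower. The rule chose the barcodes from the same cells, so nothing is read from these shares. Counts of gene lists over the other kept cells, given below, stand beside these shares of all genes. Of the 25 genes that led the list with at least 50 CPM and a 2-fold excess in every suffix, 12 were also in a list of 28 precursor genes (Vcan, Matn4, Xylt1, Ptprz1, Pcdh15, Emid1, Susd5, Lhfpl3, Nxph1, Traf4, Megf11 and Dscam). That list was chosen with earlier results of these data known, so the overlap and the counts of its genes are a description. The other leading genes were Sema3d, Sox6, Col11a2, Sulf2, Cspg5, Shc4, Spon1, Kank1, Snx22, Myt1, Bcan, Bcas1 and Chadl. In all, 131 genes met these limits. The pooled log2 ratios of the 25 leading genes ran from 2.45 (Chadl) to 4.79 (Vcan), and from 3.27 (Kank1) to 5.99 (Vcan) without the mixed barcodes. Of the 28 precursor genes, 27 were higher in OPC barcodes, none lower, with a median log2 ratio of 2.24, and 28 with a median of 3.15 without the mixed barcodes; the median over all genes tested was 0.03 and −0.08. Leaving out the unmixed barcode of 28754 UMIs gave 26 higher, and Cd9 no longer reached 2-fold.

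Several genes among the leading ones and in the lists build or modify the chondroitin sulfate matrix around the cell. Xylt1, the xylosyltransferase that starts the sugar chains of proteoglycans, had 261, 684, 517 and 351.5 CPM in the OPC barcodes of suffixes 1 to 4, against 25.6, 22.1, 27.5 and 32.4 CPM in the other kept cells. Cspg5, the proteoglycan neuroglycan C, had 1123, 1906, 1131 and 824 CPM in OPC barcodes, against 97.0, 125, 142.8 and 161 CPM. Bcan, the proteoglycan brevican, had 746, 1202, 1229 and 877 CPM in OPC barcodes, against 86.6, 126, 181 and 176 CPM. OPC barcodes were the higher class in every suffix for all 3 genes, whereas astrocyte barcodes came near them, with 543 CPM of Cspg5 and 878 CPM of Bcan against 1061 and 997 CPM pooled in OPC barcodes. Acan, the proteoglycan aggrecan, was found in 19 OPC barcodes at 43.8 CPM, against 1.77 CPM in the other kept cells, and had no UMI in astrocyte barcodes. Sulf2, a sulfatase that edits heparan sulfate, had 257 CPM in OPC barcodes and 26.7 CPM in the other cells.

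Others are signalling and adhesion genes. Sema3d, a secreted semaphorin, had 117, 166, 140 and 60.5 CPM in the OPC barcodes of suffixes 1 to 4, against 1.23, 2.78, 3.62 and 2.62 CPM in the other kept cells, and was found in 38 OPC barcodes. Susd5, a membrane protein of the sushi domain family, had 67.3 CPM in OPC barcodes against 1.16 CPM in the other cells, a 58.2-fold difference with an interval of 36.7 to 92.5, and was found in 31 OPC barcodes. Shc4, an adaptor of receptor tyrosine kinases, had 92.3 CPM in OPC barcodes, 7.11 CPM in oligodendrocyte barcodes and 1.53 CPM in astrocyte barcodes. Myt1, a zinc finger transcription factor, had 152 CPM in OPC barcodes, 9.72 CPM in oligodendrocyte barcodes and 6.12 CPM in astrocyte barcodes, so that it set OPC barcodes apart from both glial classes. Nxph1, the neurexin ligand neurexophilin, had 120.5 CPM in OPC barcodes, 1.12 CPM in oligodendrocyte barcodes and 24.4 CPM in neuron barcodes. Dscam, an adhesion molecule, had 188 CPM in OPC barcodes and 51.2 CPM in neuron barcodes. Serpine2, an inhibitor of serine proteases, had 541.5 CPM in OPC barcodes, 32.2 CPM in oligodendrocyte barcodes and 363.5 CPM in astrocyte barcodes.

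The promoters of these genes are shown for the 2 that led the ratio, Vcan and Matn4, and for Emid1, which was the first in the ranking to hold both motifs searched. The sequences are RefSeq windows (GRCm38.p6) from 250 bases before to 50 bases after the annotated start, written 5′ to 3′ on the gene's strand. Capitals mark matches to a SOX factor motif, ACAAAG or its reverse complement CTTTGT, and to the E-box CAGCTG, which bHLH factors such as the OLIG proteins can bind. They are Vcan at chr13:89742463-89742762, Matn4 at chr2:164404769-164405068 and Emid1 at chr11:5150025-5150324, all on the minus strand.
Vcan: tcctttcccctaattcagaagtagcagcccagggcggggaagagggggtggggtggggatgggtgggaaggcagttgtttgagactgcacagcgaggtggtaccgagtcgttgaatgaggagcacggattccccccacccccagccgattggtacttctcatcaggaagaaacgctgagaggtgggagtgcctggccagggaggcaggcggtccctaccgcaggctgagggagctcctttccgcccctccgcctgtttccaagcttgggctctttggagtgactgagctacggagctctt
Matn4: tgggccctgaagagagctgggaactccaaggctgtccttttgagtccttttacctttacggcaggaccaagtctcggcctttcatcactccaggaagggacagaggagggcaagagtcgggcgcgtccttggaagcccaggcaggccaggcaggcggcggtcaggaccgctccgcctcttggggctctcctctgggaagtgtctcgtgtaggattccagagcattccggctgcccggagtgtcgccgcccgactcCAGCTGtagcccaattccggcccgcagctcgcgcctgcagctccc
Emid1: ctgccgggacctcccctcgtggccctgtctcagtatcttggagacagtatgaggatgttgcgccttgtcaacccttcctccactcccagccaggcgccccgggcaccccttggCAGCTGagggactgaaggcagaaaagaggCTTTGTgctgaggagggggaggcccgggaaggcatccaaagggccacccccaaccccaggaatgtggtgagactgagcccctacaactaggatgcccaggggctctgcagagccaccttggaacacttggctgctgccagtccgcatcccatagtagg
The Vcan window held neither motif, the Matn4 window shown 1 E-box and the Emid1 window shown 1 of each. Matn4 and Emid1 each have another window in the table, at chr2:164405111-164405410 and chr11:5152181-5152480, and neither of these held either motif. Of the 25 leading genes, 20 were in the RefSeq table, with 31 windows. The SOX motif was in windows of 5 of the 20 genes (Sema3d, Emid1, Sox6, Kank1 and Myt1) and in 10 of the 31 windows (32.3%), against 18.7% of all 32851 windows. The E-box was in windows of 7 genes and in 22.6% of the 31 windows, against 16.3% of all windows. A gene can have several windows, so windows are not independent and these shares are a description.

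The transcription factors of the lineage set OPC barcodes, like oligodendrocyte barcodes, apart from astrocytes and neurons. Olig2 had 153 CPM in OPC barcodes (125 to 187), 164 CPM in oligodendrocyte barcodes, 12.2 CPM in astrocyte barcodes and 5.81 CPM in neuron barcodes. Of its 98 UMIs in OPC barcodes, 36 came from the unmixed barcode of 28754 UMIs. Without that barcode Olig2 had 102 CPM, 0.619-fold of the level in oligodendrocyte barcodes (0.466 to 0.809). It was found in 26.2% of OPC barcodes and 35.3% of oligodendrocyte barcodes. Olig1 had 407 CPM in OPC barcodes, 751.5 CPM in oligodendrocyte barcodes and 32.6 CPM in astrocyte barcodes, and in every suffix OPC barcodes lay above the other kept cells, with 314.5, 787, 521 and 283.5 CPM against 49.7, 74.9, 93.3 and 78.9 CPM. Sox10 had 172 CPM in OPC barcodes, 249.5 CPM in oligodendrocyte barcodes and 5.10 CPM in astrocyte barcodes. Sox6, which restrains differentiation, separated OPC barcodes from oligodendrocytes, with 189 CPM in OPC barcodes against 12.0 CPM, a 15.8-fold difference (10.6 to 24.1). Over the other kept cells, 10 of the 24 factors tested were higher (among them Olig1, Olig2, Sox10, Nkx2-2, Sox8, Sox5, Sox6, Zeb1 and Zfp488) and 1 lower, the astrocyte factor Sox9, with 15.6 CPM in OPC barcodes against 44.9 CPM in the other cells. Without the mixed barcodes, 17 were higher and 1 lower.

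**Figure D3:**
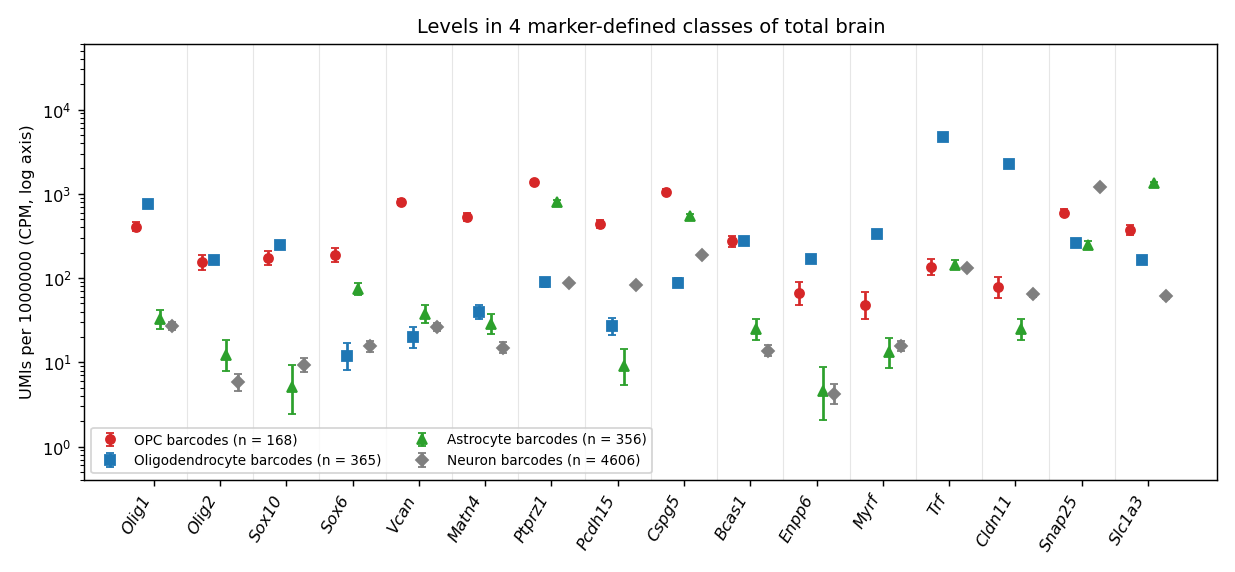
Levels in CPM (log axis, 95% Poisson intervals for counting error) of 16 genes in OPC barcodes (red, n = 168), oligodendrocyte barcodes (blue, n = 365), astrocyte barcodes (green, n = 356) and neuron barcodes (grey, n = 4606). Sox10 is 172 CPM in OPC and 249.5 CPM in oligodendrocyte barcodes, Vcan 803 against 19.8 CPM, and Trf 136 against 4786 CPM; Snap25 (neurons) and Slc1a3 (astrocytes) are above 0 in all classes.

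Against oligodendrocyte barcodes, 2276 of 13028 genes (17.5%) were higher and 843 (6.47%) lower in OPC barcodes. Scaled by the median of gene ratios, which shifts the log2 ratio over oligodendrocytes by 0.37, over the other kept cells by 0.13 and over astrocytes by 0.15, the split became 1250 higher and 1304 lower. Without the mixed barcodes 2106 (16.9%) were higher and 1245 (10%) lower of 12438, and with equal weight per barcode 1800 (13.8%) and 1006 (7.72%). Myelin genes were low: of 24 genes of myelin and mature oligodendrocytes outside the rule, 23 were lower and none higher, with a median log2 ratio of −3.62, whereas the median over all genes was 0.35. Mbp, the myelin basic protein, had 324 CPM in OPC barcodes and 4127 CPM in oligodendrocyte barcodes, and Cldn11, the tight junction claudin of myelin, 78.3 and 2239 CPM. Trf, which encodes transferrin, had 136 CPM in OPC barcodes and 4786 CPM in oligodendrocyte barcodes, Mal 130 and 3976 CPM, and Car2 86.1 and 2603 CPM. Adamts4, a protease of proteoglycans, had 0 UMIs in OPC barcodes against 119.7 CPM in oligodendrocyte barcodes, at least 25.5-fold higher in oligodendrocytes with the limit set at 3 counts over the class (4.70 CPM). Gjc3, which encodes a connexin, differed from this pattern, with 360 CPM in OPC barcodes, 559 CPM in oligodendrocyte barcodes and 77.6 CPM in the other kept cells. Mbp also had 202 CPM in neuron barcodes and 172 CPM in astrocyte barcodes, which should lack it, and the part of free RNA in its level in OPC barcodes was not tested.

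A few receptors and feedback genes of growth factor signalling were higher in OPC barcodes than in the other kept cells. Erbb3, a neuregulin receptor, had 57.9 CPM in OPC barcodes, 99.9 CPM in oligodendrocyte barcodes and 4.08 CPM in astrocyte barcodes. Etv4, a target of receptor tyrosine kinase signalling, had 139 CPM in OPC barcodes against 19.3 CPM in the other kept cells, a 7.22-fold difference (5.72 to 9.02), and Spry4, a feedback inhibitor of that signalling, 45.4 and 10.1 CPM. Fgfr3, a fibroblast growth factor receptor, was higher in the pooled OPC barcodes than in the other cells, with 113 and 47.1 CPM, but had 47.7 CPM in the unmixed barcodes and 366.5 CPM in astrocyte barcodes. Of 23 receptors and feedback genes, 5 were higher over the other kept cells (Fgfr3, Erbb3, Erbb4, Spry4 and Etv4) and none lower; without the mixed barcodes 4 were higher and 2 lower. Of 16 ligands, Nrg1 was higher and Tgfb1, Cxcl12 and Il33 lower. With mixed barcodes left out, Nrg1 was higher and 6 were lower (Pdgfb, Fgf9, Bdnf, Tgfb2, Cxcl12 and Il33), Tgfb1 not among them. With equal weight per barcode none was higher and 3 were lower (Pdgfb, Fgf9 and Cxcl12). Notch ligands Dll1 (36.0 against 5.60 CPM) and Dll3 (21.9 against 0.761 CPM, 14 UMIs in 14 barcodes) were higher, as was the Notch target Hes5 (68.9 against 14.97 CPM). Notch3, a receptor of mural cells, was also higher in the pooled OPC barcodes (92.3 against 37.2 CPM) but had no UMI in the unmixed barcodes. The 5 mural markers summed to 2927 CPM in the mixed and 68.9 CPM in the unmixed OPC barcodes, against 1229 CPM in the other kept cells, and their part in these levels was not tested. Of 27 genes of the Notch, BMP and Wnt pathways and other brakes on differentiation, 6 were higher and 1 lower, and without the mixed barcodes 5 higher and 6 lower. Of 20 genes of cholesterol synthesis, which myelin formation draws on, 1 was lower and none higher over the other kept cells. Leaving out the mixed barcodes gave 5 higher and 1 lower. Compared with oligodendrocyte barcodes, 6 of the 20 were lower and none higher, beside 6.47% and 17.5% of all genes. The 20 genes summed to 1171 CPM in OPC barcodes and 1522 CPM in the unmixed ones. Their sum was 1983 CPM in oligodendrocyte barcodes, 1812 CPM in astrocyte barcodes and 887 CPM in the other kept cells.

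Glutamate receptor genes were frequent in OPC barcodes, but neuron markers were as well. Gria2, an AMPA receptor subunit, had 2050 CPM in OPC barcodes, 382 CPM in oligodendrocyte barcodes, 1057 CPM in astrocyte barcodes and 2291 CPM in neuron barcodes, and 2556 CPM in the unmixed OPC barcodes. Grin3a, an NMDA receptor subunit, had 139 CPM in OPC barcodes, 8.98 CPM in oligodendrocyte barcodes and 43.5 CPM in neuron barcodes, and 270 CPM in the unmixed ones. Of 19 glutamate receptor genes, 2 (Grin3a and Grik3) were higher over the other kept cells and none lower. Against oligodendrocyte barcodes, 13 were higher and 1 lower, beside 17.5% and 6.47% of all genes. Leaving out the mixed barcodes gave 9 higher and 2 lower, beside 16.9% and 10%. Of 13 GABA receptor genes, 8 were higher than in oligodendrocyte barcodes in both counts, beside 17.5% and 16.9% of all genes. Over the other kept cells 1 of the 13, Gabrg1, was higher and none lower, and without the mixed barcodes Gabrg1 was higher and Gabra4 lower. With equal weight per barcode none was called in either direction over those cells. Over astrocyte barcodes 4 of 13 were higher and none lower, beside 8.29% and 7.14% of all genes. Leaving out the mixed barcodes gave 2 of 12 higher and 2 lower, beside 10.9% and 14.9%. The neuron marker sums above stand beside these counts, and their part in them was not tested. Ion channel genes included 8 of 26 that were higher over the other cells, among them Kcnj10 (102 against 40.6 CPM), Kcnj16 (25.04 against 4.75 CPM) and Kcnd2 (144 against 55.8 CPM). Of 27 matrix and adhesion genes, 15 were higher (Bcan, Ncan, Acan and Cspg5 among them) and 1, Adamts4, lower, with a median log2 ratio of 1.12.

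**Figure D4:**
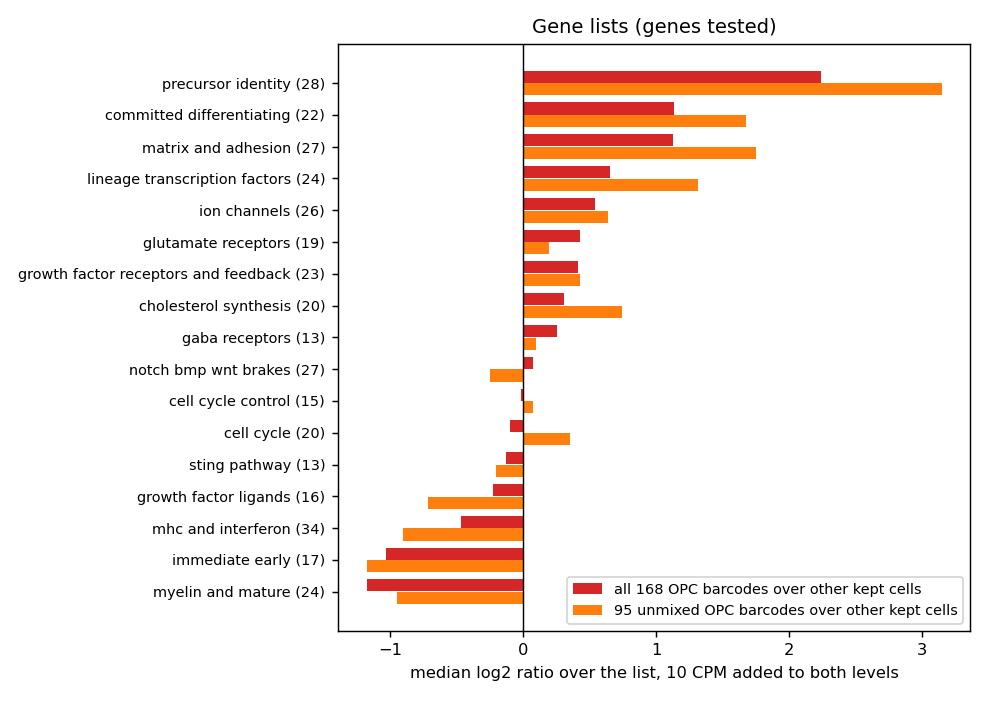
Median log2 ratio over each gene list (number of genes tested in brackets) in OPC barcodes over the other kept cells, for all 168 barcodes (red) and for the 95 unmixed barcodes (orange). Of the lists plotted, which leave out the cell type markers, precursor genes are highest, with 2.24 and 3.15, and myelin genes lowest for all barcodes, with −1.17.

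Genes of the committed and differentiating stages were higher in OPC barcodes for 12 of 22 genes and lower for 1 (Arpc1b), against the other kept cells, with a median log2 ratio of 1.13. Without the unmixed barcode of 28754 UMIs, 5 were higher and 1 lower, and Bmp4, Enpp6, Lims2, Mycl, Rnd2, Sirt2 and Zfp488 no longer reached 2-fold. Bcas1, a marker of early myelinating cells, had 274 CPM in OPC barcodes, 272 CPM in oligodendrocyte barcodes and 37.95 CPM in the other kept cells, and Itpr2, a calcium release channel, had 271, 31.4 and 58.9 CPM in the same classes. Myrf, the transcription factor that switches on myelin genes, had 48.5 CPM in OPC barcodes and 329.5 CPM in oligodendrocyte barcodes. The OPC barcodes were split by their UMIs of Pdgfra and Gpr17, a division made after the data were seen: 38 had more Gpr17 than Pdgfra, 89 more Pdgfra, 14 equal counts above 0 and 27 neither. Both genes had a UMI in 71 members, so the split is by the larger count.

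Of the genes of the differentiating stages with at least 10 UMIs, 13 of 16 were higher and 1 lower in the 38 barcodes with more Gpr17 than in the 89 with more Pdgfra. Without the deepest barcode these were 10 and 1 of 15. Over all 9026 genes tested, 5.09% were higher and 7.16% lower, and without the deepest barcode 5.15% and 7.81% of 8783. The Gpr17 barcodes were chosen for a gene of that stage, so the levels are a description. The 23 genes of that list summed to 5356 CPM in the barcodes with more Gpr17 and 1368 CPM in those with more Pdgfra, a 3.92-fold difference (3.48 to 4.41), which was 2.20-fold (1.92 to 2.53) without the deepest barcode of 28754 UMIs. Without both the mixed and that barcode, the difference was 4.02-fold (3.30 to 4.91), in 19 and 58 barcodes. Enpp6, a choline phosphodiesterase of newly formed oligodendrocytes, had 228 CPM in the Gpr17 set, 145 CPM without the deepest barcode and 3.35 CPM in the Pdgfra set, but was found in 7, 6 and 1 barcodes. Bmp4 had 198, 50.9 and 10.1 CPM in the same order, with 26 of its 33 UMIs in the deepest barcode. Fyn, a kinase of oligodendrocyte differentiation, had 872, 320 and 131 CPM, and Sirt2 1214, 516 and 178 CPM. Myrf had 120, 102 and 30.2 CPM. Conversely, 9 of 28 precursor genes were at least 2-fold lower in the Gpr17 set and 2 higher, and without the deepest barcode 10 were lower and none higher. Pcdh15 had 216, 262 and 620 CPM, Serpine2 295, 320 and 825 CPM, Ptprz1 884, 923 and 1941 CPM and Lhfpl3 78.2, 79.9 and 208 CPM. Without both the mixed and the deepest barcode, 10 of 27 precursor genes tested were lower and 1 higher. Serpine2 (436 against 1471 CPM) and Ptprz1 (1846 against 3926 CPM) were among the lower ones. Pcdh15 (638 against 1159 CPM) and Lhfpl3 (235 against 409 CPM) were then less than 2-fold lower. Mixed barcodes made up 18 of the 38 and 31 of the 89.

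**Figure D5:**
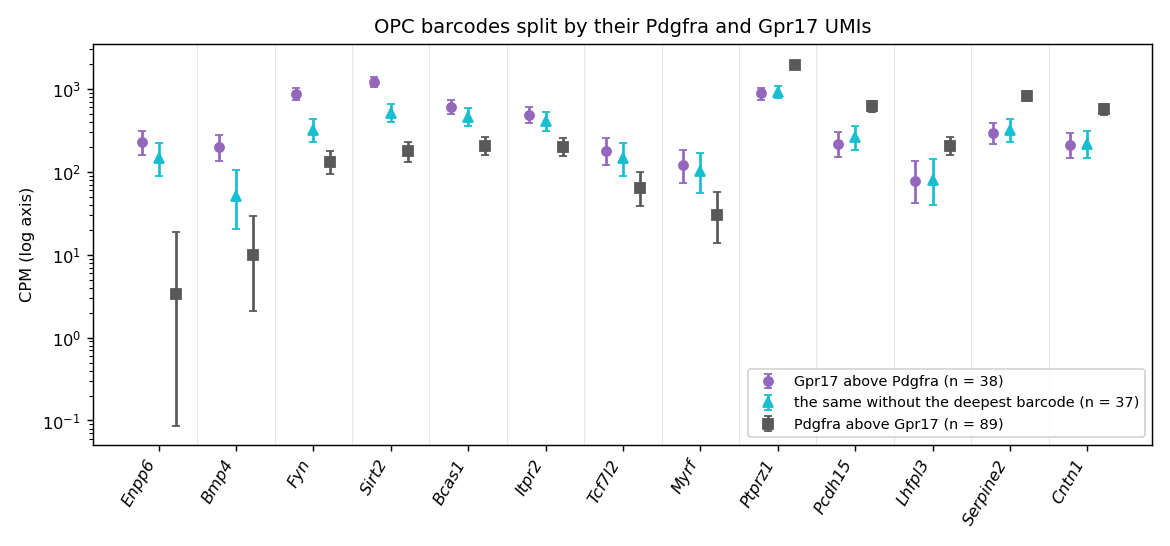
Levels in CPM (log axis, 95% Poisson intervals) of 13 genes in OPC barcodes with more Gpr17 than Pdgfra UMIs (purple, n = 38), in these without the deepest barcode (cyan, n = 37) and in those with more Pdgfra (grey, n = 89). Differentiating genes lie higher in the Gpr17 set (Fyn 872 and 320 CPM against 131 CPM) and precursor genes lower (Pcdh15 216 and 262 CPM against 620 CPM).

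Few OPC barcodes held several cell cycle transcripts. A UMI of any of 20 cell cycle genes was found in 49 of 168 (29.2%, 22.4 to 36.7%), and after thinning to 1000 UMIs in 14.1% of 142 barcodes (8.82 to 20.9%), against 11.3% in oligodendrocyte barcodes, 10.5% in astrocyte barcodes and 7.96% in neuron barcodes. At least 2 UMIs were found after thinning in 4.93% (2.01 to 9.89%) of the OPC barcodes, against 1.32%, 0.955% and 0.588% in those classes. Without thinning, a UMI of the 20 cell cycle genes was found in 44.9% of oligodendrocyte, 29.2% of astrocyte and 18.95% of neuron barcodes. At least 2 UMIs were likewise found in a larger share of oligodendrocyte than of OPC barcodes. At least 5 UMIs were found in 3.57% of OPC barcodes (1.32 to 7.61%), 2.47% of oligodendrocyte, 2.53% of astrocyte and 0.608% of neuron barcodes. The OPC interval holds the oligodendrocyte and astrocyte shares. The 6 OPC barcodes with at least 5 UMIs were all in suffixes 3 and 4. The highest had 40 UMIs in 2039, of Mki67 (7), Top2a (13) and Cenpf (20), and the next had 16 UMIs of 5 genes. None of the 6 was mixed, and in both of these the proliferation genes Mki67, Top2a and Cenpf held most of the UMIs. Mki67 was found in 6 members (3.57%), Top2a in 5 (2.98%) and Cenpf in 2. Mki67 was found in a near equal share of oligodendrocyte barcodes (3.56%), and in 0.843% of astrocyte and 0.695% of neuron barcodes. Top2a was found in 0.548%, 0.281% and 0.391% of those classes. Of the 20 cell cycle genes, 3 (Mki67, Top2a and Cenpf) were higher over the other cells. Without the barcode of 40 cell cycle UMIs, Mki67 and Cenpf each had 10.99 CPM and Top2a 12.6 CPM in OPC barcodes, and none of the 3 reached 2-fold. Mki67 and Top2a had no UMI in the Gpr17 set, against 9 and 16 UMIs in the Pdgfra set, which were 2 and 3 UMIs without that barcode. Of 15 regulators, Ccnd1, a G1 cyclin, was higher with 105 CPM in OPC barcodes against 41.1 CPM in the other cells, and none was lower. Without the mixed barcodes Ccnd1 was higher and 4 were lower (Ccnd2, Cdk6, Cdkn1a and Cdkn1c). With equal weight per barcode Ccnd1 was higher and 2 were lower (Cdkn1a and Cdkn1c). Cdkn2a had 1 UMI in all 168 barcodes.

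Tmem173, which encodes STING, had 1 UMI in the 168 OPC barcodes, 1.56 CPM (0.0396 to 8.72), against 16.8 CPM in the other kept cells, and Mb21d1, the sensor cGAS, had 0 UMIs, which allows up to 4.70 CPM (3 counts), against 6.85 CPM in the other cells. Tmem173 had 4.86 CPM in oligodendrocyte, 3.57 CPM in astrocyte and 6.66 CPM in neuron barcodes. It was found in 0.595% of OPC barcodes (0.0151 to 3.27%), an interval that holds the shares of 2.19% in oligodendrocyte, 1.69% in astrocyte and 1.35% in neuron barcodes. Of 13 genes of the pathway, none was higher and 1, Tmem173, lower over the other kept cells. Over oligodendrocyte barcodes 3 of 9 (Samhd1, Ddx41 and Nfkb1) were higher and none lower, beside 17.5% and 6.47% of all genes. With the barcode of most UMIs left out gene by gene, Samhd1 and Ddx41 no longer reached 2-fold, and 1 of 9 was higher. The 14 genes of the pathway in the files summed to 448 CPM in OPC barcodes, 262 CPM in oligodendrocyte barcodes, 437 CPM in astrocyte barcodes, 426 CPM in neuron barcodes and 429 CPM in the other kept cells. Because the genotypes are pooled, a low Tmem173 level cannot be told apart from the share of STING-KO cells. Of 34 genes of antigen presentation and interferon response, 9 were lower over the other kept cells, such as Cd74, the class II chaperone (7.83 against 183 CPM), and 1 was higher, C4b (90.8 against 38.6 CPM). Without the mixed barcodes 16 were lower and none higher. Against oligodendrocyte barcodes 10 of 33 were higher and 1, Xaf1, lower, beside 17.5% and 6.47% of all genes. Among the 10 were the class I genes B2m (280.2 against 98.8 CPM), H2-D1 (322 against 98.4 CPM) and H2-K1 (228.5 against 77.4 CPM). B2m had a UMI in 19.6% of OPC and 20.55% of oligodendrocyte barcodes, and H2-D1 in 31.55% and 24.1%. Without the mixed barcodes 8 of 31 genes were higher and 2 lower, beside 16.9% and 10% of all genes. With equal weight per barcode 2 of 33 were higher and 2 lower, beside 13.8% and 7.72%. With the barcode of most UMIs left out gene by gene, 6 were higher and 2 lower, and Ifit1, Irf7, Oasl2 and Rsad2 no longer reached 2-fold. Over astrocyte barcodes none of 33 was higher and 7 were lower, beside 8.29% and 7.14% of all genes. The 34 genes summed to 2132 CPM in OPC barcodes, 1129 CPM in oligodendrocyte barcodes, 3243 CPM in astrocyte barcodes, 1599 CPM in neuron barcodes and 3591 CPM in the other kept cells.

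Of 17 immediate early genes, 9 were lower over the other kept cells and none higher, among them Jun (480.5 against 1132 CPM) and Egr1 (186 against 428 CPM). Over oligodendrocyte barcodes 2 of 17 (Nr4a1 and Klf6) were higher and 2 (Jund and Egr2) lower, beside 17.5% and 6.47% of all genes. Their median log2 ratio was 0.20, and without the mixed barcodes none was called in either direction. With the barcode of most UMIs left out gene by gene, 0 were higher and 4 lower, and Nr4a1 and Klf6 no longer reached 2-fold. Over astrocyte barcodes 5 were lower and none higher, beside 7.14% and 8.29% of all genes. The 17 genes summed to 3443 CPM in OPC barcodes, 3718 CPM in oligodendrocyte barcodes, 5834 CPM in astrocyte barcodes, 3217 CPM in neuron barcodes and 6840 CPM in the other kept cells.

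The lowest ratios over the other kept cells belonged to transcripts of other cell types, of which Cd74 is named above. Ttr, the transthyretin of the choroid plexus, had 936 CPM in OPC barcodes and 26973 CPM in the other kept cells. The hemoglobin gene Hbb-bs, which marks blood, had 639 CPM in OPC barcodes and 9235 CPM in the other cells, but 16733 CPM in astrocyte and 4643 CPM in oligodendrocyte barcodes. Against astrocyte barcodes, 1128 of 13614 genes (8.29%) were higher and 972 (7.14%) lower. Without the mixed barcodes 1431 (10.9%) were higher and 1960 (14.9%) lower of 13176, and with equal weight per barcode 1107 (8.13%) and 968 (7.11%). Pcdh15 led the higher genes, with 440 against 9.18 CPM, 47.9-fold (29.8 to 82.1), and Opcml had 501 against 43.3 CPM. The lowest were genes of ependymal cilia such as Ccdc153, 1.56 against 546.5 CPM, and Foxj1, the transcription factor of motile cilia, 1.56 against 181 CPM, so the astrocyte barcodes hold reads of ependymal genes. Of the 10 lowest, 5 (Tmem212, Fam183b, Riiad1, Rsph1 and Cfap126) had log2 ratios above 0 with a stricter filter on barcodes (1000 or more genes, mitochondrial UMIs no more than 5%).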

How the data were processed

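The authors deposited raw UMI counts per gene and barcode for 31053 genes. Cells had been called with Cell Ranger; the submitters' processing notes name version 3.0.2, whereas the file headers name 3.0.2 for sorted and 3.1.0 for total brain. The genome build is mm10, per the same notes, with an annotation release not given in the sources used here. Columns of other samples numbered 0.

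Barcodes needed 500 genes and no more than 10% mitochondrial UMIs, and classes were set by markers. Astrocyte barcodes had at least 4 of 7 astrocyte markers and neuron barcodes at least 4 of 10 neuron markers, each outside the other classes. No doublet caller was run; barcodes with markers of other cells were marked as mixed and left out in an alternative. Levels are UMIs summed over the barcodes of a class per 1000000 UMIs (CPM), with exact Poisson intervals; shares have exact Clopper-Pearson intervals and folds exact conditional binomial intervals, at 95%. Log2 ratios add 10 CPM to both levels. For thinning, each barcode was drawn down to 1000 UMIs, which left out 26 OPC, 63 oligodendrocyte, 42 astrocyte and 863 neuron barcodes. The genes named are those of the lists and those with at least 50 CPM and a 2-fold difference in every suffix with at least 20 OPC barcodes, without predicted genes: the 25 highest and 10 lowest over the other kept cells and the 10 highest and 10 lowest over oligodendrocyte and astrocyte barcodes. For the lower direction the minimum applied to the class compared with. Rgs5 and Spp1 were named after their values were seen. The members and the 29 lists were chosen with earlier results of these data known. Positions were read from GENCODE M21 (GRCm38), where 455 of 455 genes were found. Alternatives covered filters, the marker rule, mixed barcodes, suffixes, the added CPM, UMI minimums, scaling and weighting. The ratios were tested on simulated data. Software was Python 3.11.15, numpy 2.4.6, scipy 1.17.1 and pandas 2.3.3.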

Additional observations from a re-analysis of the deposited data

How the results depend on the processing

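No paired analysis was possible because each group holds 1 pooled sample. The share of OPC barcodes, 1.79%, was 2.24% with the stricter filter, 1.07% with at least 4 precursor genes and at most 1 mature gene, 1.05% without barcodes of at least 4 neuron markers, 1.31% with a lineage factor required and 1.02% without mixed barcodes. Over the other kept cells, 491 genes higher and 531 lower became 1349 and 1898 with the 4-gene rule, 1033 and 1219 without neuron-marked barcodes, 872 and 1392 without OPC barcodes over 10000 UMIs, 1283 and 1718 without mixed barcodes, 1508 and 2255 with 1 CPM added, and 737 and 974 without suffix 4 (450 to 737 and 450 to 974 over the suffixes left out). The lower count was 865 with the stricter filter, 920 with a lineage factor required and 862 as the mean of suffix levels. Over oligodendrocyte barcodes, 2276 higher were 788 with the stricter filter, 3945 with 1 CPM added and 1250 with median-of-ratios scaling, and 843 lower were 1587, 1293, 1348 and 1304 with the 4-gene rule, without deep barcodes, with 1 CPM added and with that scaling. Over astrocyte barcodes, 1128 higher were 710 with the stricter filter and 2053 with 1 CPM, and 972 lower were 638, 2078, 1793, 1960 and 1796 with the stricter filter, the 4-gene rule, without deep barcodes, without mixed barcodes and with 1 CPM. The Gpr17 share, 60.1%, was 73% with the 4-gene rule and 38.03% after thinning. The cell cycle share, 29.2%, was 21.4% without neuron-marked barcodes, 21.1% without mixed ones and 14.1% after thinning. The causes were not tested. With the stricter filter 5 log2 ratios over astrocytes changed sign, Tmem212 to 0.85, Fam183b, Riiad1 and Cfap126 to 0.13 and Rsph1 to 0.064. Of 1425 single-gene values for 75 genes, 955 stayed within their counting interval, 465 moved out of it and 5 changed sign. With the barcode of most UMIs left out gene by gene, Fgfr3, Nrg1, Notch3, Ccnd1 and C4b also no longer reached 2-fold over the other kept cells. The alternatives without mixed barcodes, without deep barcodes, without the deepest unmixed barcode, with a lineage factor required and with equal weight per barcode were chosen after the data were seen.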
